A study of Mus musculus with 6 samples.

Results

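The skeletal muscle sarcomere genes described here are 10 genes of striated muscle fibres whose transcripts were read in mouse aortic arches. They were found by gene name among the probes that are not controls, which gave 10 of the 22441 genes matched to RefSeq, with 11 probes (2 for Tnnt3, 1 for each other gene) of 55681 on the array. The genes are Acta1, Myh1, Myh2, Myh4, Mylpf, Tnnt3, Tnni2, Ckm, Tcap and Atp2a1. All 11 probes lay well above background on all 6 arrays by the scanner's flag, so every gene has a reading in every arch and none was lost to a filter on dim probes.

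The BM Mir21 KO group comprised 3 arches of female recipients that carried Mir21-/- bone marrow, called KO arches here, and the BM Mir21 WT group 3 arches of recipients with Mir21+/+ marrow, called WT arches. The recipients of both groups were Mir21+/+ females of strain C57BL/6, given 2 whole-body X-ray doses of 5 Gy each, no more than 4 h apart, transplanted the next day and put on a high-fat diet after 3 weeks for 12 weeks. Only blood cells and other marrow-derived cells therefore differ in genotype, while muscle fibres of the recipient keep Mir21. The age of the mice, the hour at which tissue was taken and how the arch was trimmed are not given in the sources used here, and each array held the RNA of 1 mouse by the series' design.

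A sarcomere is the contractile unit of a striated muscle fibre, in which myosin heavy chains of the thick filament pull on actin of the thin filament when calcium binds the troponin complex. Fast skeletal fibres use their own genes for most of these parts, and the fast myosins IIa, IIx and IIb, encoded by Myh2, Myh1 and Myh4, mark fibre types of increasing speed. The wall of the aorta contracts with smooth muscle, which has no sarcomeres and uses other actin and myosin genes. Skeletal muscle fibres are not part of the vessel wall but occur in tissues of the neck and chest near it, and in a bulk sample fewer cells of a type and less RNA per cell cannot be told apart.

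The Myh1, Myh2 and Myh4 probes lie side by side on mouse chromosome 11, at 67010960 to 67011019 for Myh2, 67038002 to 67038061 for Myh1 and 67073834 to 67073893 for Myh4, all on the plus strand of mm9, the build of the scanner files. Their upstream sequences are shown because Myh4 read differently from its neighbours across the arches, while Myh1 and Myh2 read alike (Pearson r 0.94). Each is the run of 250 bases before the RefSeq start on GRCm38.p6, 5′ to 3′, and capitals mark matches on either strand to TATAAA, to CANNTG, to the CArG box (the element bound by serum response factor) or to the MEF2 element.
Myh2, chr11:67170777-67171026, plus strand: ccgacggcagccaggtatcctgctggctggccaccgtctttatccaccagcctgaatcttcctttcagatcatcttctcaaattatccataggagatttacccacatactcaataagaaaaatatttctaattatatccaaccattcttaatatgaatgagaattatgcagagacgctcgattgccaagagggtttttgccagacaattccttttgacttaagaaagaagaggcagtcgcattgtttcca
Myh1, chr11:67199852-67200101, plus strand: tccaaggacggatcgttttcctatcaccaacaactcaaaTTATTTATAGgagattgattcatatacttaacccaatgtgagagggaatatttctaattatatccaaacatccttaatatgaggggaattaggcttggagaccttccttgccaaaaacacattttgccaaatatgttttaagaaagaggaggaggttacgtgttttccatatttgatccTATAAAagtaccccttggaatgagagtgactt
Myh4, chr11:67237562-67237811, plus strand: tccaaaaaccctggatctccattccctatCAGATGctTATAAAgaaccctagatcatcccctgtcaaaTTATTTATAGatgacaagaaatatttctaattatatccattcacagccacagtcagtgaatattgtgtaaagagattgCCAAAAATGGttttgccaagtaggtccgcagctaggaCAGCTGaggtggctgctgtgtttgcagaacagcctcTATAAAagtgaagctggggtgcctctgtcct
The run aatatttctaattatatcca, 20 bases long, occurs in all of them. A TATAAA match begins 32 bases before the start in Myh1 and 31 bases before it in Myh4, and each also holds a MEF2 match that contains a further TATAAA match on the other strand. Myh4 also holds another TATAAA match, a CArG box and 2 CANNTG matches, and the Myh2 window holds none of these letters. The windows depend on where RefSeq places each start, and bases past the Myh2 start were not searched. The absence in this window therefore does not show that the Myh2 promoter lacks these letters.

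Promoter sequences were at hand for 7 of the 10 genes, namely Acta1, Atp2a1, Ckm, Myh1, Myh2, Myh4 and Mylpf. Matches to TATAAA occurred in 3 of these 7, against 12.4% of the 32851 windows of the same length in the RefSeq table. CANNTG, the E-box letters read by the myogenic factors, occurred in 5 of the 7, against 66.2% of all windows, and the CArG box in 2, against 1.47%. The MEF2 element occurred in 2 of the 7, against 2.92%, and CACGTG in 0 of the 7, against 6.02%. Both MEF2 matches have the same letters and lie in the neighbours Myh1 and Myh4, which also both hold TATAAA matches. These promoters are therefore not independent of each other. A match is a description of letters and not of binding.

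The arches differed widely in fast muscle transcripts, and the difference lay between single mice more than between the groups. WT replicate 1 read highest of the 6 arches for 7 of the 10 genes, while over all 38323 tested probes 11.2% were highest there. For 5 of the 10 genes it stood at least 2-fold above every other arch, against 0.193% of all tested probes. WT replicate 2 was the lowest of all arches for 8 of the 10 genes, so that the extremes of most of these genes both lay among the WT arches. Some of these lowest values are dim signals, as given below. All values below are log2 signals relative to the 75th percentile of signal on the same array, so a step of 1 is a doubling, and probes of different genes are not compared in level.

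Myh2, the myosin of fast oxidative IIa fibres, read -2.05, -1.80 and -1.26 in the KO arches, against 3.49, -2.55 and -1.73 in the WT arches. WT replicate 1 was thus 26.9-fold above the next highest arch, and the other five lay between -2.55 and -1.26. The groups overlapped, and the KO minus WT difference was -1.44 ± 1.40 (SE, 3 arrays per group).

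Myh1, the myosin of IIx fibres, read -2.94, -2.01 and -0.48 in the KO arches and 2.37, -3.73 and -2.44 in the WT arches. WT replicate 1 was 7.18-fold above KO replicate 3, the next highest, and 68.3-fold above WT replicate 2. The last ratio rests on a dim value, since the Myh1 signal of WT replicate 2 was 25.7, below that array's median of 53.57. The difference was -0.54 ± 1.46 (SE).

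Myh4, the myosin of the fastest IIb fibres, had another pattern. It read 1.11, -1.87 and -2.88 in the KO arches, against 1.01, -4.07 and -1.20 in the WT arches. KO replicate 1 and WT replicate 1 were both high and close to each other, although KO replicate 1 was second lowest for both Myh1 and Myh2. The lowest value is dim, since the Myh4 signal of WT replicate 2 was 20.3, below that array's median of 53.57. The KO minus WT difference was 0.20 ± 1.39 (SE).

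**Figure D1:**
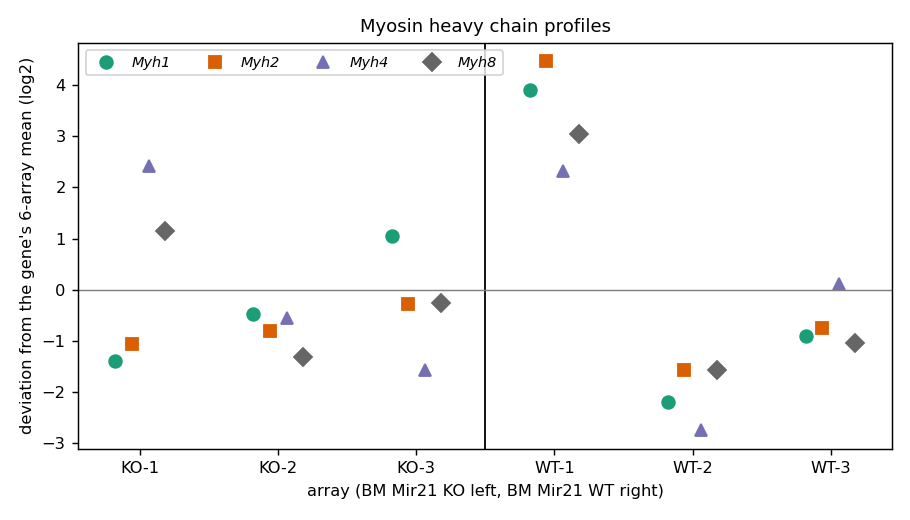
Deviation of 4 myosin heavy chain genes from their own 6-array mean (vertical axis, log2) on each array (horizontal axis, KO left and WT right). Each gene is drawn by its brightest tested probe, 1 point per gene and array. WT-1 is high for every gene, KO-1 is high for Myh4 (2.42) and Myh8 (1.15) but low for Myh1 (-1.40), and KO-3 is high for Myh1 (1.06) but low for Myh4 (-1.57).

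The perinatal myosin Myh8, from the list of developmental and extraocular myosins, was the only measured gene of that list of 3. Its brightest tested probe, of 4 on the array, read 2.35, -0.11 and 0.94 in the KO arches and 4.24, -0.38 and 0.16 in the WT arches. This probe was again highest in WT replicate 1, with KO replicate 1 second. Its KO minus WT difference was -0.28, against -0.0004 with the tested probes of Myh8 averaged. Myh3, the embryonic myosin, was well above background on at most 3 arrays, and Myh13, the extraocular myosin, on 0.

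The thin filament switch was read by the fast troponin genes. Tnnt3, fast troponin T, which ties the complex to tropomyosin, has a pair of overlapping probes on chromosome 7, shown because they share part of their letters and so are no independent readings. Capitals mark the 27 bases they share.
Tnnt3 upstream probe, chr7:149698467-149698526, plus strand of mm9: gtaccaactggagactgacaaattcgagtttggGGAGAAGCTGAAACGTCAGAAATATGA
Tnnt3 downstream probe, chr7:149698500-149700262, plus strand of mm9: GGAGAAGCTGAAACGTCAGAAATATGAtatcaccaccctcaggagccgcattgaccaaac
The second probe's coordinates span 1763 bases for 60 bases of probe, as for a probe that crosses an intron. The upstream, brighter probe read -0.36, -1.02 and -1.08 in the KO arches, against 2.59, -2.44 and -0.53 in the WT arches. The downstream probe read -0.67, -1.35 and -1.29 in the KO arches and 2.17, -2.70 and -0.62 in the WT arches, the same picture with WT replicate 1 high and WT replicate 2 low. Their KO minus WT differences were -0.69 ± 1.09 and -0.72 ± 1.05 (SE).

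Tnni2, fast troponin I, which holds the filament off in the absence of calcium, read 1.82, 1.49 and 1.61 in the KO arches, against 4.30, 0.06 and 1.80 in the WT arches. The KO arches lay within 0.33 of each other and between the WT extremes, where WT replicate 1 was 18.9-fold above WT replicate 2. The difference was -0.41 ± 0.91 (SE). Over the 6 arches the profiles of Tnnt3 and Tnni2 had a Pearson r of 0.99, and of 0.97 without WT replicate 1, a description of arrays that share tissue of the same 6 mice.

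Ckm, the muscle creatine kinase that buffers ATP beside the filaments, read -1.89, -2.68 and -2.53 in the KO arches, against -0.18, -4.09 and -2.60 in the WT arches. It followed the troponins, with a Pearson r of 0.98 to Tnni2 over the 6 arches, and its difference was -0.08 ± 0.86 (SE). The lowest value is dim, since the Ckm signal of WT replicate 2 was 19.9, below that array's median of 53.57. The Ckm probe is 60 bases long, and its coordinates span 2608 bases of chromosome 7, as for a probe that crosses an intron.

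Mylpf, the regulatory light chain of fast myosin, was dim, at -4.12, -4.14 and -4.04 in the KO arches and -3.66, -4.52 and -4.26 in the WT arches. The highest and the lowest arch were again WT replicates 1 and 2, but the whole spread was 0.85, and the difference was 0.05 ± 0.23 (SE). Its signal ran only from 14.5 to 31.7, and whether so dim a probe follows its transcript was not tested.

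Atp2a1, the calcium pump SERCA1 that relaxes fast fibres, read -1.76, -1.01 and -1.71 in the KO arches, against -0.82, -1.84 and -1.65 in the WT arches. WT replicate 1 was 1.15-fold above KO replicate 2, the next highest, and the difference was -0.06 ± 0.32 (SE).

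Acta1, skeletal α-actin of the thin filament, did not follow the fast fibre genes. It read 4.92, 5.69 and 5.26 in the KO arches, against 5.09, 5.16 and 5.09 in the WT arches. The WT arches lay within 0.07 of each other, although 2 of them were 68.3-fold apart for Myh1, and the highest value was that of KO replicate 2. The difference was 0.18 ± 0.21 (SE), with a 95% interval from -0.32 to 0.67. The probe is shown because actin genes are near-identical in coding sequence, and whether it also binds transcripts of other actins, such as the abundant Acta2 of smooth muscle, was not tested.
Acta1, chr8:126416197-126416256, minus strand of mm9: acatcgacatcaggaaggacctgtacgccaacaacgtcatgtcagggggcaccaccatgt
Among the probes of this array, the longest run of letters that any of the 11 probes shared with a probe of another gene was 15 bases. Probes were compared with probes and not with transcripts, so this cannot show which transcripts a probe binds.

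Tcap encodes telethonin, which caps titin at the Z disc, and it was the only member whose groups did not overlap. It read 5.43, 4.44 and 5.81 in the KO arches, against 6.76, 7.88 and 6.98 in the WT arches. All 3 KO arches lay below all 3 WT arches, and WT replicate 2, the arch lowest in fast myosins and troponins, was the highest for Tcap. The KO minus WT difference was -1.98 ± 0.41 (SE), or 3.94-fold lower in KO arches, with a 95% interval from -2.95 to -1.01. It did not pass across all tested probes (limma, adjusted p = 0.393), where it ranked 164 by p. Of the 10 genes 1 was thus lower without overlap, against 6.14% of all tested probes in that direction and 13.7% in either direction, and 1 had an unadjusted p below 0.05 in this direction, against 4.27%.

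Tcap is also known from heart, where in mice it has been described as a target of the circadian activators Clock and Bmal1. Dbp, a transcription factor driven by the same activators and chosen after its values were seen, read 2.14, 0.73 and 2.99 in the KO arches, against 5.51, 6.69 and 6.22 in the WT arches. The 6 arches stood in the same order for Dbp as for Tcap, while Bmal1 and the clock gene Per1 did not share that order. Of all tested probes 51, or 0.133%, shared it with Tcap. Any single order of 6 arrays is rare among probes, so this share does not test a link between the genes. The Dbp difference was -4.19 ± 0.56 (SE, limma, adjusted p = 0.325). Bmal1 itself (listed as Arntl) read 1.12, 2.08 and 1.80 in the KO arches and -0.51, -2.29 and -2.74 in the WT arches, with a difference of 3.51 ± 0.56 (SE, limma, adjusted p = 0.355). It was also chosen after its values were seen, and neither gene passed across all tested probes. The part of the clock in the Tcap difference was not tested, and the groups' hours of collection are unknown here.

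Markers of fat and heart are given beside Tcap. Over 9 measured brown fat genes the mean deviation from each gene's 6-array mean was 1.09, -1.29 and -2.28 in the KO arches and 1.08, 0.18 and 1.23 in the WT arches, and over 10 white fat genes it was 1.36, -1.26 and -2.66 in the KO arches and 1.0, 0.24 and 1.31 in the WT arches. Cardiac genes averaged 1.45, -1.04 and 0.89 in the KO arches, against -0.65, -0.02 and -0.62 in the WT arches. The part of fat or heart tissue in the Tcap difference was not tested.

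**Figure D2:**
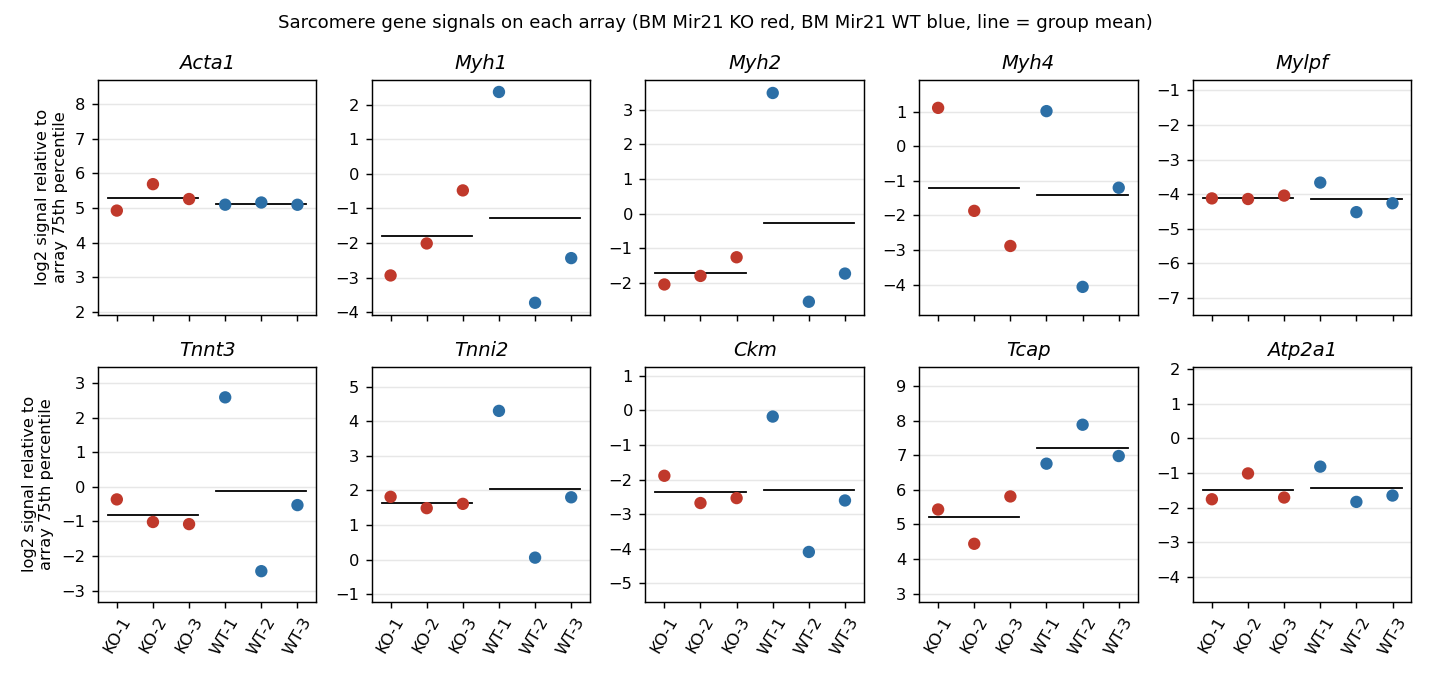
Log2 signal relative to the array's 75th percentile (vertical axis, the same span of 6.8 in every panel) for each gene's brightest probe on each array (horizontal axis), with KO arches in red on the left, WT arches in blue on the right and lines at the group means. WT-1 stands alone at the top for Myh2, Myh1, Tnnt3, Tnni2 and Ckm, Acta1 is level, and Tcap alone has all KO points below all WT points.

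The comparison of the groups across the array asked which arch transcripts depend on Mir21 in marrow-derived cells. Of the 11 member probes 0 passed (limma, Benjamini-Hochberg adjusted over 38323 probes, threshold 0.05), and of all tested probes 1 passed, or 0.00261%. At an unadjusted p below 0.05 there was 1 member, Tcap, against 8.71% of tested probes. By the signs, 3 of the 10 genes read higher and 7 lower in KO arches, with a median difference of -0.25, beside 0.02 over all tested probes. The standard errors of the members ran from 0.21 for Acta1 to 1.46 for Myh1, and the 95% interval of Myh2 reached from -4.71 to 1.83, so differences of several fold either way lie within the error of the fast myosins. The adjusted p of the other nine genes ran from 0.789 for Myh2 to 0.986 for Ckm.

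Leaving out WT replicate 1 turned the sign of 6 of the 10 genes. Without it, 9 of the 10 genes read higher and 1, Tcap, lower in KO arches, with a median difference of 0.55, beside 0.01 over all tested probes. The differences of Myh1 (1.27 ± 0.72), Ckm (0.98 ± 0.46), Tnni2 (0.71 ± 0.48), Tnnt3 (0.66 ± 0.55), Myh2 (0.44 ± 0.34) and Atp2a1 (0.25 ± 0.28) then changed sign from below to above 0, with adjusted p of 0.896 or more. The signs of Acta1, Myh4, Mylpf and Tcap stayed as they were. Leaving out another arch also turned signs, for Myh1 (0.02), Myh4 (-0.96) and Atp2a1 (0.074) without KO replicate 1, for Acta1 (-0.024) and Ckm (0.079) without KO replicate 2, and for Ckm (0.0075) and Atp2a1 (0.049) without KO replicate 3. Without WT replicate 2 the signs of Myh4 (-1.12) and Mylpf (-0.14) turned, and without WT replicate 3 that of Mylpf (-0.0085). Tcap read -2.20 ± 0.46 without WT replicate 1 (SE, adjusted p = 0.772).

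**Figure D3:**
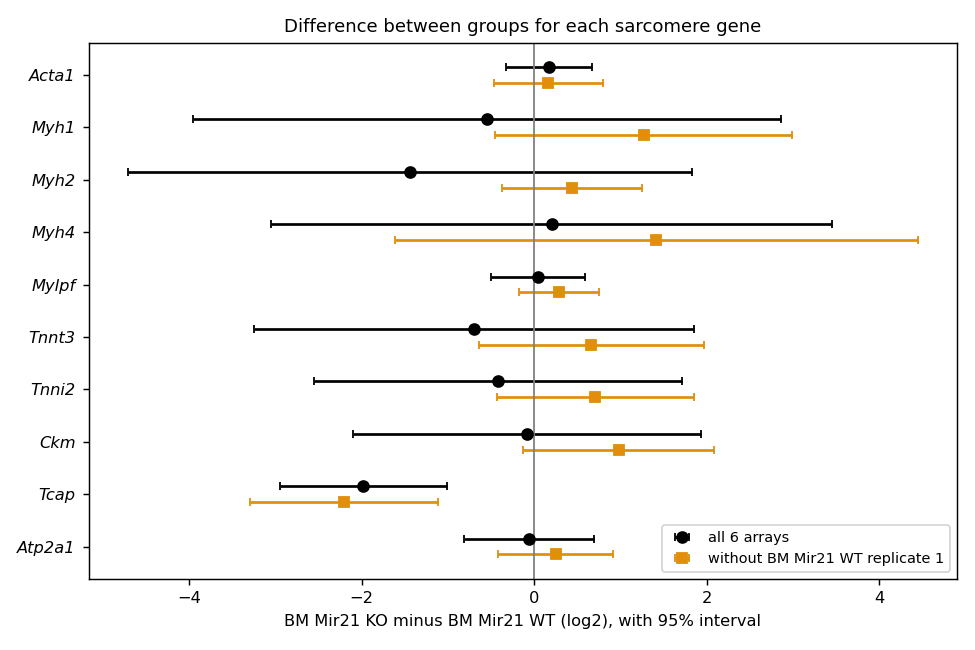
KO minus WT difference of each gene on the log2 scale (horizontal axis) with 95% intervals, from all 6 arrays (black circles) and without WT replicate 1 (orange squares). The intervals of the fast myosins span several units and cross 0, Myh1 moves from -0.54 to 1.27, and Tcap lies at -1.98 and -2.20.

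Of 18 other genes of fast fibres 16 were measured, 0 passed in either direction, and the median difference was -0.06. WT replicate 1 was highest for 10 of the 16, against 11.2% of all tested probes. It stood at least 2-fold above every other arch for 4 of them, against 0.193%. Casq1, Pygm, Mylk2, Pfkm, Phkg1 and Gpd1 were highest in another arch. Tnnc2, fast troponin C, read 1.84, 1.01 and 1.28 in the KO arches and 4.50, -0.19 and 1.70 in the WT arches, which put WT replicate 1 6.32-fold above the next. Pgam2, the muscle phosphoglycerate mutase of glycolysis, was 2.72-fold above the next there, Jsrp1, a protein of the calcium release site, 2.47-fold, and Myoz1, a Z-disc protein, 2.44-fold. The fast genes with the smallest p were Gpd1 (-1.63 ± 0.71), a glycerol phosphate dehydrogenase that fat cells also make in large amounts, Myl1 (-1.44 ± 0.81), an alkali light chain, Jsrp1 (-0.47 ± 0.37) and Tmod4 (-0.28 ± 0.23). Gpd1 followed the fat genes, with 8.36, 6.14 and 5.19 in the KO arches and 8.14, 7.96 and 8.47 in the WT arches.

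Genes shared by skeletal fibres of any type were measured for 15 of 18, with 0 past the test and a median difference of -0.16. WT replicate 1 was highest for 5 of the 15, against 11.2% of all tested probes. Neb, the giant ruler of the thin filament, was 5.06-fold above the next arch there, the calcium release channel Ryr1 3.1-fold and its voltage sensor Cacna1s 2.68-fold. The endplate receptor subunit Chrna1 (0.50 ± 0.27), Klhl40 (0.36 ± 0.21), Sgca (0.37 ± 0.24) and Smyd1 (-0.37 ± 0.24) had the smallest p of this list, and in none of them was WT replicate 1 at least 2-fold above the others. Of 6 myogenic factors and satellite cell genes 4 were measured, Myod1, Myf6, Pax7 and Mymk, with 0 past the test and differences between -0.30 and 0.13. The master regulator Myod1 read -2.91, -3.35 and -3.38 in the KO arches and -2.91, -3.18 and -2.85 in the WT arches, so its signal did not set WT replicate 1 apart. That signal ran only from 24.3 to 57.6, and whether so dim a probe follows its transcript was not tested.

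Slow fibre genes, most of them shared with heart, were measured for 11 of 11 with 0 past the test and a median difference of -0.18. WT replicate 1 was highest for 2 of them, against 11.2% of all tested probes. Myoglobin (Mb), the oxygen store of oxidative fibres, read 1.52, -0.59 and 1.49 in the KO arches and 2.80, 1.32 and 0.55 in the WT arches. Slow myosin Myh7 read -2.66, -2.52 and -2.04 in the KO arches and -2.34, -2.50 and -2.21 in the WT arches, with no arch apart. Myoz2 (-0.48 ± 0.32), Atp2a2 (0.26 ± 0.23), Mb (-0.75 ± 0.72) and Tnnc1 (-0.43 ± 0.61) had the smallest p.

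Of the 997 other named genes whose profile spanned at least 2 on the log2 scale, the 7 most like the mean profile of the members over the 6 arrays were Neb, Tnnc2, Myoz1, Trdn, Ryr1, Pgam2 and Cacna1s. Their Pearson r ran from 0.99 for Neb to 0.96 for Cacna1s, and without WT replicate 1 from 0.99 for Tnnc2 to 0.67 for Cacna1s. Trdn encodes triadin, a protein of the calcium release complex of striated muscle. Since 1 arch carries most of the spread, any gene high in that arch scores high here.

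In all, 74 tested probes were at least 2-fold above every other arch in WT replicate 1, and 53 different genes were named among them. Of these 53 genes 5 were members and 11 were on the other skeletal muscle lists, while 0 were on the cardiac, smooth muscle, fat, thymocyte or epithelium and gland lists. These counts take any tested probe of a gene. Pvalb enters by a dimmer probe (2.51-fold), while its brightest probe was 1.42-fold above the next arch. Genes on none of the lists included Myom2 (3.81-fold) and Mybpc1 (3.65-fold), further sarcomere genes chosen after their values were seen. Fkbp5 (2.88-fold) and Tsc22d3 (2.67-fold), both induced by glucocorticoids, were also on none.

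The smooth muscle of the labelled tissue was read on every array. The smooth muscle genes Acta2, at 9.50, 9.59 and 10.05 in the KO arches and 9.36, 9.60 and 9.32 in the WT arches, and Tagln, at 9.21 or more in every arch, were far above the 75th percentile. All 10 smooth muscle genes were measured, 0 passed, and the median difference was 0.26, with values of 0.78 ± 0.24 for Myh11, 0.49 ± 0.26 for Mylk, 0.56 ± 0.30 for Myocd and 0.28 ± 0.20 for Acta2. Of the 10 only Myh11 was higher in KO arches without overlap, against 7.59% of tested probes. Their mean deviation was -0.30, 0.25 and 0.48 in the KO arches, against -0.22, 0.05 and -0.27 in the WT arches, where the members averaged -0.09, -0.39 and -0.23 in the KO arches and 1.99, -1.12 and -0.16 in the WT arches.

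Tissues that neighbour the arch were read by lists of their markers, and their part in the muscle values was not tested. Cardiac genes (12 of 12 measured, 0 past the test, median 0.83) had differences of 0.72 ± 0.28 for Tnnt2, 1.83 ± 0.87 for Nppa, 0.48 ± 0.23 for Nppb and 0.81 ± 0.46 for Myl4, and WT replicate 1 was highest for 0 of them. That median was 0.25 without KO replicate 1 and 1.62 without KO replicate 2. The atrial and ventricular myosin Myh6 read 4.21, -1.61 and 2.90 in the KO arches and -1.36, 2.47 and -0.11 in the WT arches, a spread as wide as that of Myh2 but in other arches. Brown fat genes (9 of 10, 0 past the test, median -1.69) had Elovl3 at -3.37 ± 1.09, Fabp3 at -1.68 ± 0.73, Ucp1 at -2.30 ± 1.03 and Otop1 at -2.19 ± 1.02. White fat genes (10 of 10, 0 past the test, median -2.12) had Fasn at -2.43 ± 0.94, Fabp4 at -1.79 ± 0.74, Lep at 0.60 ± 0.26 and Scd1 at -2.18 ± 1.01. Both fat lists were low in KO replicates 2 and 3. The brown fat median was -2.81 without KO replicate 1 and -1.19 without KO replicate 3, and the white fat median -3.39 without KO replicate 1 and -1.02 without KO replicate 3.

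Thymocyte genes (10 of 10, 0 past the test, median -0.53) had differences of -0.53 ± 0.17 for Arpp21, -1.11 ± 0.42 for Tcf7, -0.67 ± 0.26 for Rag2 and 0.36 ± 0.17 for Cd8a, with 0 highest in WT replicate 1. Among markers of stratified and airway epithelium, thyroid and parathyroid, 5 of 10 were measured, with 0 past the test, a median of 0.03, and values of -2.63 ± 1.67 for Scgb1a1, 0.28 ± 0.32 for Krt13, 0.07 ± 0.19 for Krt5 and 0.03 ± 0.33 for Tg. Krt4 and Foxj1 were well above background on at most 2 arrays, Calca on 1, and Pth on 0. The airway secretory protein gene Scgb1a1 read -1.41, -0.91 and -1.36 in the KO arches and -1.57, -0.09 and 5.87 in the WT arches, so WT replicate 3 stood apart for it and not the arch that was rich in skeletal muscle transcripts.

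**Figure D4:**
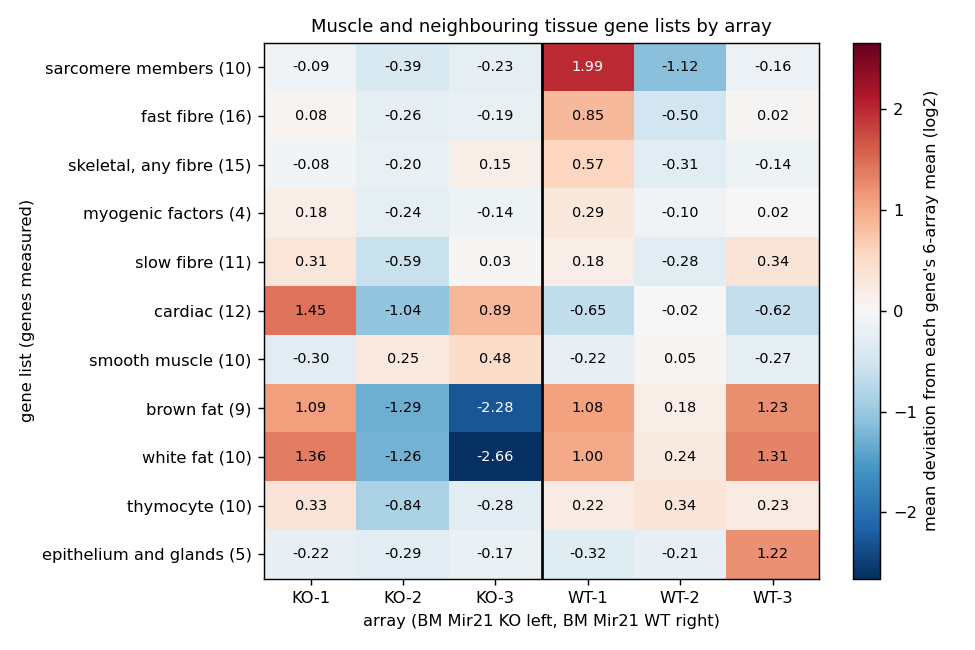
Mean deviation of each gene list from its genes' 6-array means (colour and number, log2) by list (vertical axis, number of genes measured in brackets) and array (horizontal axis, KO left, WT right). The sarcomere genes peak in WT-1 (1.99) and are lowest in WT-2 (-1.12), while cardiac genes peak in KO-1 (1.45) and fat genes are lowest in KO-3 (-2.66 for white fat).

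Between 66.4% and 74.4% of an array's spots lay well above background, with 75th percentiles of signal between 238.9 and 407.2 and 0 saturated spots. WT replicate 1 had 74.4% and a 75th percentile of 401.7, close to WT replicate 3 (407.2). WT arrays lay in slide row 1 and KO arrays in row 2 of the same slide and scan, so row and group cannot be told apart.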

How the data were processed

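Cy3-labelled arch RNA (100 ng per sample, RNA integrity number above 7.5) was read on 1-colour Agilent arrays, 1 per mouse, 3 per group. The deposited processed signal is a linear intensity from which, per the file headers, Feature Extraction 10.7.3.1 had removed background and spatial trends; no scaling across arrays had been applied. The authors' series matrix repeated those intensities within 0.497%, its column medians over all rows, control spots included, running from 32.1 to 54.3, so scale, centring and direction were settled.

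Values are log2 of that signal, relative to the array's own 75th percentile among non-control spots, without outlier spots and with a probe's spots averaged. Of 55681 probes, 38323 were tested being well above background on every array of at least 1 group; 10 were set aside for outlier spots. Member probes were taken by the files' gene name. List genes were named through RefSeq by accession (27509 probes), name (3549) or synonym (404), each by its brightest tested probe. KO minus WT was fitted with lmFit and eBayes of limma 3.58.1 in R 4.3.3, two-sided, Benjamini-Hochberg adjusted over all tested probes, threshold 0.05; the fit was tested on simulated data. The number of arrays limits the precision.

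The members and lists were chosen with earlier results of these data known. Named were all members, up to 4 genes per list with the smallest p, and the 8 genes most like the members' mean profile, of which 1 is not reported here; genes named for being high in 1 arch, Dbp, Arntl and single list genes were chosen after their values were seen. Positions are those of the files on mm9; promoters are RefSeq's on GRCm38.p6. Exons and untranslated regions were not analysed here, and no comparison with full transcripts was made. Alternatives covered background correction, normalization, the filter, the series table, a replicate block, the variance model, array weights, the probe chosen and leaving out each array.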

Additional observations from a re-analysis of the deposited data

How the results depend on the processing

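Under each alternative other than the mean of all probes of a gene, for which calls were not counted, 0 member probes and 0 genes of the related lists passed. Tcap kept its sign under all 17 alternatives, from -2.27 to -1.58, with adjusted p from 0.14 to 1. The count over all probes was 4 with normexp (offset 50), 2 with median centring, trended robust variance or array weights, and 0 with the stricter filter (well above background on all arrays) or with no moderation of the variance; leaving out 1 array gave 1 to 2. The replicate block gave 1 probe, 0 members, and Tcap at -1.98 (adjusted p = 0.56). Deviations of same-numbered arrays had correlations of 0.12, 0.049 and -0.28, within the -0.37 to 0.39 of arrays with unlike numbers. With 3 arrays per group this cannot show whether the numbers pair the samples.

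Signs turned with array weights for Myh4 (-0.78) and Atp2a1 (0.076), and with normexp for Atp2a1 (0.017). Leaving out 1 array at a time, the differences ran from -1.78 to 1.27 for Myh1, -2.58 to 0.44 for Myh2, -1.12 to 1.42 for Myh4, -1.85 to 0.66 for Tnnt3, -1.41 to 0.71 for Tnni2, -0.98 to 0.98 for Ckm, -0.30 to 0.25 for Atp2a1, -0.14 to 0.29 for Mylpf and -0.024 to 0.36 for Acta1. The members' median ran from -1.27 to 0.55 and the any-fibre list's from -0.25 to 0.17. List medians ran from -0.36 to 0.14 for fast fibre, -0.46 to 0.015 for slow fibre, -1.14 to 1.17 for Myh8 of the developmental list, -0.30 to -0.058 for myogenic factors, 0.25 to 1.62 for cardiac, 0.11 to 0.43 for smooth muscle, -2.81 to -1.19 for brown fat, -3.39 to -1.02 for white fat, -0.88 to -0.36 for thymocyte genes and -0.063 to 0.17 for epithelium and glands. Array weights gave 0.40 for cardiac genes. With normexp the medians of the myogenic factors (0.11) and thymocyte genes (-0.026) moved. The cause of these moves was not tested.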
